A study of Mus musculus with 15 samples.

Results

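Genes usually read as the homeostatic signature of microglia were followed through RNA-seq values of sorted tumor-associated macrophages (TAMs). They were Fcrls, Tmem119, Gpr34, Olfml3, Sall1, Siglech, Cx3cr1, Slc2a5 and Tgfbr1, 9 of the 55335 genes listed. They were picked by symbol, with their levels against the control group already known, so their differences from control are given as a description and without a test. The macrophages came from C57BL/6 mice with orthotopic liver tumors grown from Hepa1-6 cells, a mouse hepatocellular carcinoma (HCC) line that carried a luciferase lentivirus, and they were sorted on CD11b and F4/80. The tumor cells, not the macrophages, received a control lentivirus, or one overexpressing miR-144, or one overexpressing miR-451a. There were 5 samples in each of the 3 groups, 15 in all. The study's legend gives fewer replicates for this RNA-seq than were deposited, without saying which. Since the labels do not say that the samples of a group are separate mice, p-values measure only the spread between these samples. The comparisons ask how a miRNA placed in the tumor cells relates to what the neighbouring macrophages express.

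Microglia are the resident macrophages of the brain. They depend on TGF-beta signalling and on the transcription factor Sall1, and in the healthy brain they express a set of surface receptors and secreted proteins that most other macrophages express weakly or not at all. Fcrls is an Fc receptor-like scavenger receptor, Tmem119 a membrane protein, Gpr34 a receptor for lysophosphatidylserine, Cx3cr1 the fractalkine receptor, Siglech a sialic acid-binding lectin shared with plasmacytoid dendritic cells, Olfml3 a secreted olfactomedin protein, Slc2a5 a fructose transporter and Tgfbr1 the type I TGF-beta receptor, which is expressed widely.

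The overexpressed miRNAs are encoded next to each other on mouse chromosome 11, and their mature RNAs are printed because they define the groups. They are given 5′ to 3′ from RefSeq (GRCm38.p6) with bases 2 to 8, the seed, in capitals. The labels do not say which arm of miR-144 was intended, so both are shown, at chr11:78073010-78073032 and chr11:78073047-78073066 on the plus strand. miR-451a lies at chr11:78073186-78073207 on the same strand. No seed is shared among the 3 RNAs.
mmu-miR-144-5p: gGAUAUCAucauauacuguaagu
mmu-miR-144-3p: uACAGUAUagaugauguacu
mmu-miR-451a: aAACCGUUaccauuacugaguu

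Sequence before the gene start was found in RefSeq for 7 of the 9 genes, all but Tmem119 and Gpr34. The stretches without annotated exon bases are printed for 3 genes that stood for different levels in these macrophages: Fcrls, the most abundant in both miRNA groups, Siglech, which was barely detected, and Tgfbr1, which was expressed in every sample. Each is given 5′ to 3′ on the strand of its gene. Capitals mark GAGGAA, a PU.1-type motif, or GGAAGT, the ETS core, on either strand (on the opposite strand they read TTCCTC and ACTTCC). The motifs have the letters GGAA in common and can overlap. The Fcrls stretch (chr3:87263600-87263677, minus strand, 78 bases) holds 1 GAGGAA. It ends 75 bases before the RefSeq start but lies inside the gene as GENCODE draws it, in an intron of the model that starts farthest upstream, since the annotated starts differ. The Siglech stretch (chr7:55767934-55768177, plus strand, 244 bases) holds 1 GGAAGT, and the Tgfbr1 stretch at the first of its RefSeq starts (chr4:47352972-47353221, plus strand, 250 bases) holds neither. A later RefSeq start of Tgfbr1 has another such stretch, not printed (chr4:47385966-47386215), with 1 of each motif and a GC content of 52.8%. Over all 32851 upstream windows of 250 bases, 23.3% held GAGGAA and 19.7% held GGAAGT, so a match is common and marks no known site. GC content was 46.8% in the whole 250-base window of Fcrls, 50.8% in that of Siglech and 74.8% in the printed one of Tgfbr1, against a median of 52.4% over all windows.
Fcrls: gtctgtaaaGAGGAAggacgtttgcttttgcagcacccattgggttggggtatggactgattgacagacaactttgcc
Siglech: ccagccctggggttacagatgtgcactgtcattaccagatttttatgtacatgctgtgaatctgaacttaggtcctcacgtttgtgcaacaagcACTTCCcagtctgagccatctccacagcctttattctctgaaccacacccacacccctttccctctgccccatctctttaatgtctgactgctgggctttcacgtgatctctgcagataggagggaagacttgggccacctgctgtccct
Tgfbr1: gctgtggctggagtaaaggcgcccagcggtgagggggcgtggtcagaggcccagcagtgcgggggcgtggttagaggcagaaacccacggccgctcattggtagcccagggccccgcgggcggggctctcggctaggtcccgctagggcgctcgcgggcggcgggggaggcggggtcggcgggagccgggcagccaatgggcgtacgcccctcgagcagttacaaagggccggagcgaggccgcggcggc

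Values are FPKM as deposited, fragment numbers divided by transcript length and by the mapped fragments of the sample. The implied depth was 15.5 to 30.3 M fragments a sample, and the level that 3 fragments give in the shallowest sample, called the floor here, was 0.034 to 0.093 FPKM for the 9 genes. The control libraries stood far from the others: of the 11419 genes that averaged 1 FPKM or more over the samples, 67.2% were called between miR-144 and control and 68.3% between miR-451a and control by limma with Benjamini-Hochberg adjustment (adjusted p under 0.05). The median gene was 0.13 (miR-144) and 0.14 (miR-451a) higher than control on the log2(FPKM + 1) scale. In the miR-144 comparison 47.1% of genes were called higher and 20.1% lower. In the miR-451a comparison these shares were 48.1% and 20.3%. After centring each sample on its median, 3512 genes were higher and 3511 lower with miR-144, and 3577 and 3636 with miR-451a. Between miR-451a and miR-144, limma called 0 genes (0%), with 596 at an unadjusted p under 0.05.

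The microglial label was only partly borne out by the defining genes. Sall1 and Sall3, transcription factors of the same family, were listed at 0 in all 15 samples, as was the microglial crystallin Crybb1. P2ry12, the purinergic receptor used to mark microglia, had 0.67 ± 0.08 FPKM in control, 3.70 ± 0.58 in miR-144 and 2.18 ± 0.31 in miR-451a (mean ± SD, n = 5 each). The 6 neural genes summed to at most 0.127 FPKM in any sample, and Mog, Aqp4 and Snap25 were listed at 0. The sorted cells carried the markers of the sort: Adgre1, which encodes F4/80, had 137 ± 5.0 FPKM in control, 361 ± 25 in miR-144 and 354 ± 20 in miR-451a, and Itgam, which encodes CD11b, had 25.5 ± 13, 63.8 ± 13 and 53.4 ± 25. Ptprc, which encodes CD45, was called higher as well, whereas Cd68, the most abundant of these 4 genes, fell from 1444 ± 46 to 919 ± 25 and 910 ± 57 FPKM. The 9 genes are therefore named here as genes, and not as a cell type. In bulk samples fewer cells of a type and less RNA per cell cannot be told apart.

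Of the 9 genes, 5 had all miR-144 samples above all control samples, and 6 had all miR-451a samples above all control samples. Of the 6 that averaged 1 FPKM or more and so were in the fit, 4 and 5 were placed in this way, beside 37.9% and 38.8% of all genes tested. Because the genes were picked with these levels known, nothing is read from these counts.

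**Figure D1:**
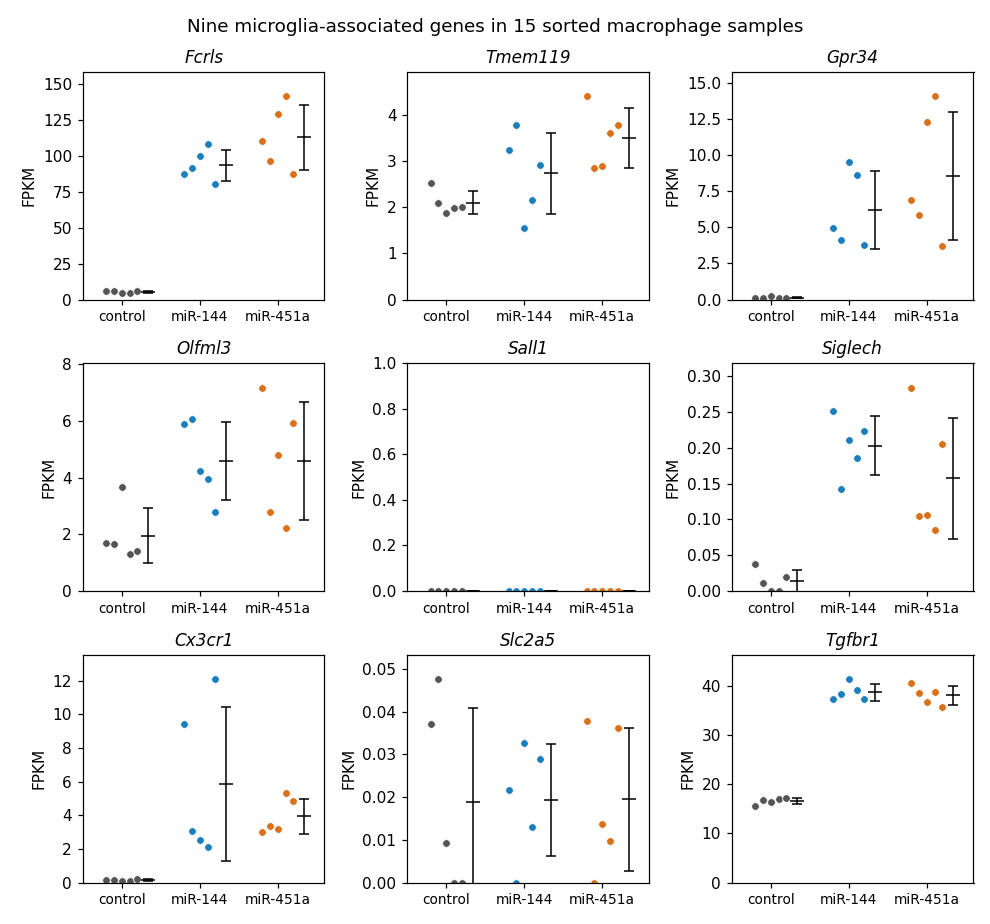
Level of each of the 9 genes in FPKM (linear axes from 0, each panel on its own scale) in the control, miR-144 and miR-451a samples. Coloured points are samples in order of replicate number 1 to 5, and the black mark with its bar is the mean ± SD (n = 5). Fcrls, Gpr34, Cx3cr1, Siglech and Tgfbr1 have every miRNA sample above every control sample, Sall1 is at 0 in every sample, and Slc2a5 never exceeds 0.048 FPKM.

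Fcrls had the highest level of the 9 genes in both miRNA groups. It lies at chr3:87250758-87263738 (minus strand, GENCODE M21, GRCm38), and none of its 50-base stretches recurs in another gene's transcripts. In the control samples, replicates 1 to 5 in turn, its level was 5.77, 6.01, 4.39, 4.76 and 6.16 FPKM. In miR-144 it was 87.5, 91.5, 99.6, 109 and 80.3 FPKM, and in miR-451a 111, 96.3, 129, 142 and 87.2 FPKM. The groups of miRNA samples overlapped each other, and no miRNA sample came near the control range. The mean was 5.42 ± 0.79 FPKM in control, 93.5 ± 11 in miR-144 and 113 ± 22 in miR-451a (SD, n = 5), which is 17.3-fold and 20.8-fold above control. Against the other genes tested, the control mean lay above 47.8% of them, and the miRNA means above 96.6% and 97.3%. On the log2(FPKM + 1) scale the differences from control were 3.88 and 4.14, the largest rise of the 11419 genes in each comparison. That rank depends on the pseudocount: with 0.1 in place of 1, the differences were 4.09 and 4.35 and ranked 8 and 6, behind Gpr34 among others.

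Gpr34 went from close to the floor to a middling level. It lies at chrX:13632089-13640858 on the plus strand, inside Cask on the minus strand, and the sources used here do not say whether the libraries kept strand. Its control levels were 0.130, 0.103, 0.235, 0.089 and 0.118 FPKM, of which 4 exceeded the floor of 0.093 FPKM. In miR-144 it had 4.93, 4.09, 9.52, 8.62 and 3.76 FPKM, and in miR-451a 6.89, 5.83, 12.3, 14.1 and 3.71 FPKM. The miRNA groups overlapped, and both lay wholly above control. Means were 0.135 ± 0.058, 6.18 ± 2.7 and 8.55 ± 4.4 FPKM, a 45.8-fold and 63.4-fold difference from control whose size rests on a control level near the floor. Cask itself, a scaffold kinase that shares the locus, had 2.62 ± 0.22 FPKM in control, 6.58 ± 0.31 in miR-144 and 6.28 ± 0.41 in miR-451a, while Gpr82, another receptor gene inside Cask, had at most 0.013 FPKM in control and means of 0.316 ± 0.24 and 0.269 ± 0.19. How much Cask reads add to Gpr34 was not tested.

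Cx3cr1 showed the widest spread between miR-144 samples of the genes that were well above the floor. Its annotated span, chr9:119901616-120069879 on the minus strand, takes in several other genes through one long transcript model, so its values are uncertain where reads overlap. In control it had 0.138, 0.125, 0.064, 0.085 and 0.213 FPKM. In miR-144 the levels were 9.44, 3.07, 2.55, 2.13 and 12.1 FPKM, and in miR-451a 2.98, 3.33, 3.19, 5.29 and 4.83 FPKM. Replicates 1 and 5 of miR-144 stood above all the other samples, and the remaining miR-144 samples lay within or below the miR-451a range. The means, 0.125 ± 0.058, 5.85 ± 4.6 and 3.92 ± 1.1 FPKM, were 46.9-fold and 31.4-fold above control. The monocyte list, whose cells also use Cx3cr1, moved with the groups: its 10 genes summed to 56.4 to 68.1 FPKM in control, 72.0 to 96.3 in miR-144 and 74.6 to 109 in miR-451a, with none at 0 in all samples. Fn1, most of that sum, had means of 53.0, 51.3 and 54.2 FPKM, and 4 of the 5 genes in the fit rose in each comparison (beside 47.1% and 48.1% of all genes called higher), among them Itga4, from 4.71 ± 0.25 to 19.6 ± 2.5 and 20.8 ± 1.5 FPKM. Ly6c2, another gene of the list, which does not mark all monocytes, had means of 0.006, 0.117 and 0.164 FPKM. The part of monocytes in Cx3cr1 was not tested.

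Tgfbr1 was the steadiest of the 9 genes. It lies at chr4:47353222-47414931 on the plus strand. Control samples had 15.6, 16.7, 16.4, 17.0 and 17.2 FPKM. The miR-144 samples had 37.2, 38.4, 41.3, 39.1 and 37.3 FPKM and the miR-451a samples 40.6, 38.6, 36.7, 38.8 and 35.7 FPKM. Within a group the highest sample exceeded the lowest by no more than 1.14-fold. The means of 16.6 ± 0.63, 38.7 ± 1.7 and 38.1 ± 1.9 FPKM differed from control by 2.33-fold and 2.29-fold, and the miRNA groups lay over one another.

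Tmem119 differed less. It lies at chr5:113793729-113800516 on the minus strand. Its control levels were 2.53, 2.09, 1.88, 1.97 and 2.02 FPKM. In miR-144 they were 3.25, 3.79, 1.56, 2.17 and 2.92 FPKM, and in miR-451a 4.41, 2.86, 2.89, 3.60 and 3.79 FPKM. The miR-144 samples straddled the control range, with replicate 3 below every control sample, whereas all miR-451a samples lay above control. The means were 2.10 ± 0.25, 2.74 ± 0.88 and 3.51 ± 0.65 FPKM, or 1.30-fold and 1.67-fold. On the log2(FPKM + 1) scale the miR-144 difference of 0.24 was 0.11 after centring on the sample median and 0.07 with quantile normalization. It was 0.14 without miR-144 replicate 2 and 0.37 without miR-144 replicate 3.

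Olfml3 also overlapped control. It lies at chr3:103722222-103738001 on the minus strand. In control it had 1.71, 1.67, 3.66, 1.32 and 1.43 FPKM, in miR-144 5.88, 6.05, 4.24, 3.96 and 2.80 FPKM, and in miR-451a 7.17, 2.79, 4.78, 2.23 and 5.91 FPKM. Control replicate 3 reached the lower samples of both miRNA groups, and the other control samples lay below all miRNA samples. The means of 1.96 ± 0.97, 4.59 ± 1.4 and 4.58 ± 2.1 FPKM were 2.34-fold apart from control for either miRNA. Fibroblasts also express Olfml3, and the 6 fibroblast and stellate cell genes summed to 103 to 128 FPKM in control, 136 to 201 in miR-144 and 174 to 223 in miR-451a, mostly Col1a1, with Lrat at 0 throughout. The samples had been sorted on CD11b and F4/80, and Col1a1 had means of 70.0, 102 and 124 FPKM in control, miR-144 and miR-451a. How far the sort removed fibroblasts was not measured, and their part in the Olfml3 level was not tested.

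Siglech, Slc2a5 and Sall1 were at or near nothing. Siglech (chr7:55768178-55778925, plus strand) had 0.037, 0.011, 0, 0 and 0.019 FPKM in control, all under its floor of 0.084 FPKM. It had 0.252, 0.143, 0.211, 0.185 and 0.223 FPKM in miR-144, and 0.284, 0.105, 0.106, 0.086 and 0.206 FPKM in miR-451a, all over the floor. Set against the floor, the means of 0.203 ± 0.041 and 0.157 ± 0.085 FPKM were at least 2.42-fold and at least 1.87-fold higher than control. The list for plasmacytoid dendritic cells, the other cells that carry Siglech, summed to 122 to 153 FPKM in control, 222 to 318 in miR-144 and 230 to 323 in miR-451a. That sum was mostly Bst2, an interferon-responsive gene, and 6 of the 10 genes in the list stayed under 1 FPKM in every sample. Such cells lack F4/80, but how far the sort removed them was not measured, and their part in Siglech was not tested. Slc2a5 (chr4:150119283-150144169, plus strand) never passed its floor of 0.061 FPKM, with a highest value of 0.048 FPKM in control replicate 2, and a difference between groups was not detectable at this depth. Sall1 (chr8:89027235-89044162, minus strand) was listed at 0 in every sample, where 3 fragments would have given 0.037 FPKM or less.

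The order of the 9 levels was not the same in control and miRNA samples. In control it ran Tgfbr1, Fcrls, Tmem119, Olfml3, Gpr34, Cx3cr1, Slc2a5, Siglech and Sall1, and the ranges overlapped between Tmem119 and Olfml3, between Gpr34 and Cx3cr1, and among the last 3. In miR-144 it ran Fcrls, Tgfbr1, Gpr34, Cx3cr1, Olfml3, Tmem119, Siglech, Slc2a5 and Sall1. In miR-451a Olfml3 came before Cx3cr1 and the rest of that order held. In both miRNA groups Fcrls stood apart from Tgfbr1, and Tgfbr1 from the next gene, whereas the neighbours from Gpr34 to Tmem119 overlapped.

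The 2 miRNA groups could be compared with a test, since the genes were not picked on that contrast. None of the 6 genes in the fit differed (0 of 6, beside the 0% of all genes). Fcrls was 0.26 higher in miR-451a on the log2(FPKM + 1) scale (SE 0.13, 95% interval -0.02 to 0.53, limma adjusted p = 0.952). Tmem119 was 0.29 higher (SE 0.15, interval -0.02 to 0.61, adjusted p = 0.952). Their unadjusted p-values in the limma fit were 0.0639 and 0.0614. The interval was narrow for Tgfbr1, from -0.11 to 0.06 around -0.02, and wide for Gpr34, from -0.26 to 0.99 around 0.36, for Cx3cr1, from -0.96 to 0.47 around -0.24, and for Olfml3, from -0.62 to 0.51 around -0.05. A difference of the size of these bounds is thus not excluded for any of them. Single samples set the sign for Cx3cr1 and Olfml3. Cx3cr1 was -0.03 without miR-144 replicate 1 and 0.05 without miR-144 replicate 5. Olfml3 was -0.21 without miR-451a replicate 1, and it turned positive, at 0.03 to 0.12, without miR-144 replicate 1 or 2 or miR-451a replicate 2 or 4. Siglech entered only the fit without a filter on low values, where miR-451a minus miR-144 was -0.06 (interval -0.15 to 0.03, limma adjusted p = 0.909).

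**Figure D2:**
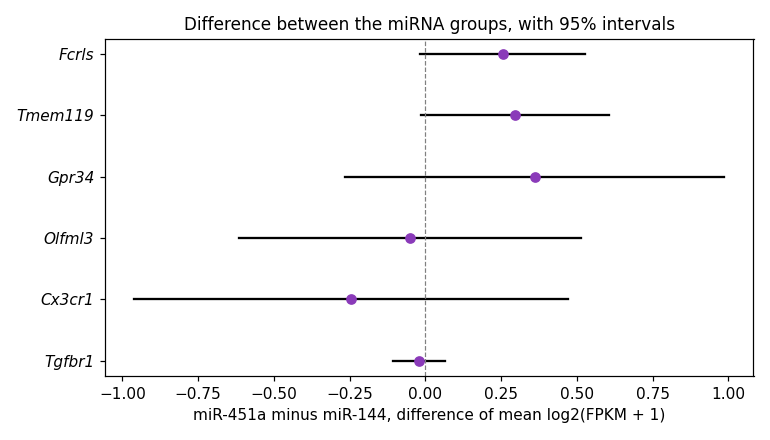
Difference between the miRNA groups, miR-451a minus miR-144, in mean log2(FPKM + 1) for the 6 genes in the limma fit (n = 5 against 5), with 95% intervals as horizontal bars and a dashed line at 0. Every interval crosses 0, narrowly for Fcrls and Tmem119, and that of Tgfbr1 is the shortest.

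Within the miRNA groups, Fcrls and Gpr34 were high in the samples with the same numbers. Fcrls was 107% and 116% of its group mean in miR-144 replicates 3 and 4 and 114% and 125% in miR-451a replicates 3 and 4, and no other miRNA sample exceeded its group mean. Gpr34 was 154% and 139% in the former pair and 143% and 164% in the latter, against 43.3% to 80.6% in the remaining 6 samples. Gpr82 was also highest in these 4 samples, at 0.432 to 0.613 FPKM against at most 0.193. Because the samples fell into separate sets, no correlation is given. The labels name no batch or pairing, so a batch and a difference between mice cannot be told apart. In control, replicate 3 was the highest for Gpr34 and the lowest for Fcrls.

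**Figure D3:**
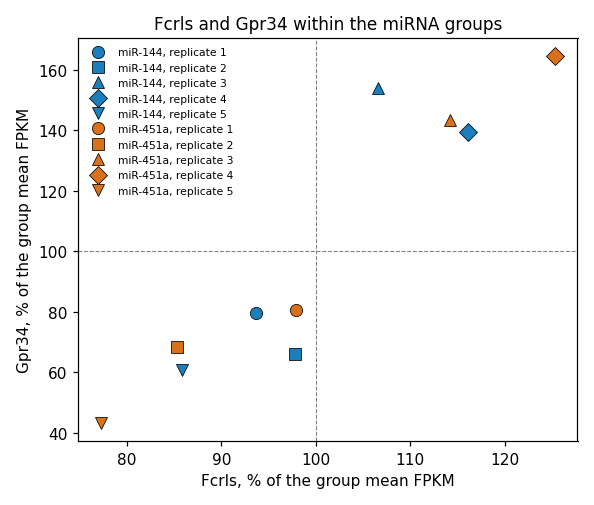
Fcrls against Gpr34 in the 10 miRNA samples, each as a percentage of its own group's mean FPKM, with colours for the group, shapes for the replicate number and dashed lines at 100%. Replicates 3 and 4 of both groups sit in the upper right, at 139% or more for Gpr34, and the other 6 samples sit below 100% for both genes.

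The surroundings of Fcrls were looked at next. Fcrl1, an Fc receptor-like gene of B cells whose start lies 113 kb from that of Fcrls, had 0.215 ± 0.039 FPKM in control, 7.37 ± 0.92 in miR-144 and 7.68 ± 1.3 in miR-451a, with no overlap between control and either miRNA group. It entered the fit only through the groups where it is high, so no test is given. Cd5l, a secreted scavenger protein of Kupffer cells and other tissue macrophages whose start is 94.1 kb away, had 3.40 ± 0.17, 29.8 ± 16 and 27.1 ± 14 FPKM (2.66 and 2.54 on the log2(FPKM + 1) scale, SE 0.34, limma adjusted p = 4.88e-06 and 7.65e-06). The wide spread of Cd5l followed the same numbers: replicates 3 and 4 had 44.9 and 48.9 FPKM in miR-144 and 38.4 and 46.1 in miR-451a, and the other 6 miRNA samples had 15.3 to 19.7. Fcrl1 was likewise highest there, at 8.29 to 9.33 FPKM against at most 7.30. Fcrl5, farther off at 172 kb, stayed at 0.060, 0.104 and 0.072 FPKM, and Kirrel, on the other side at 89.0 kb, had 2.41 ± 0.17, 4.16 ± 0.61 and 4.52 ± 0.45. Markers of B cells were low but higher in the miRNA groups, and those of Kupffer cells were mixed. The 5 B cell genes summed to at most 0.379 FPKM in control and to 1.11 to 1.45 and 1.18 to 1.75 in the miRNA groups, nearly all from Cd79b. The part of B cells in the Fcrl1 level was not tested. The 13 Kupffer cell genes, Cd5l among them, summed to 197 to 210, 203 to 248 and 197 to 233 FPKM, mostly Hmox1, which fell from 151 ± 2.1 to 123 ± 4.6 and 119 ± 3.4, and Clec4f was at 0 in all samples. Of the 8 Kupffer cell genes in the fit, 5 rose and 2 fell in each comparison (87.5% called, beside 67.2% and 68.3% of all genes), with median differences of 0.99 and 1.06 against 0.13 and 0.14 for all genes, and their part in the levels of Fcrls and Cd5l was not tested.

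**Figure D4:**
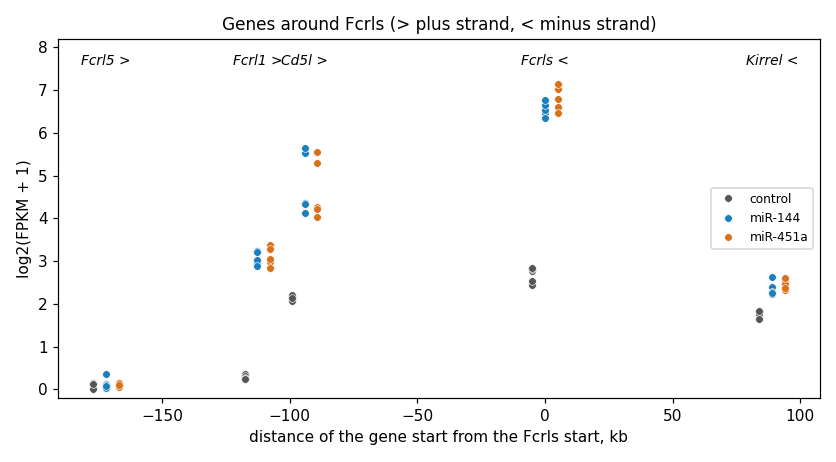
Level in log2(FPKM + 1) of Fcrls and the 4 neighbours Fcrl5, Fcrl1, Cd5l and Kirrel, plotted at the distance of their starts from the Fcrls start in kb, with each point a sample and colours for the 3 groups (control, miR-144 and miR-451a shown side by side). Fcrl1 and Cd5l, like Fcrls, lie far above control in both miRNA groups, Kirrel lies slightly above and Fcrl5 is near 0 throughout.

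The genes whose course over the 15 samples was nearest to that of Fcrls were found by the root mean square difference of log2(FPKM + 1) from the control mean, as a description. They were Hpgd, a prostaglandin-degrading enzyme (0.56), the interferon-induced genes Ifit3 (0.59) and Ifit3b (0.65), Igfbp4, which binds insulin-like growth factors (0.68), and Marcksl1, an actin-regulating protein (0.70). Hpgd had 11.3 ± 3.3 FPKM in control, 130 ± 20 in miR-144 and 139 ± 23 in miR-451a. Ifit3 had 6.95 ± 1.9, 94.7 ± 21 and 89.9 ± 23 FPKM, and it shares much sequence with Ifit3b, so that reads may be split between them.

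Genes of the same state that are not among the 9 were then compared with control. That list, the disease-associated list and the TGF-beta list were chosen with earlier results of these data known, so their counts are a description beside the share of all genes and not independent evidence. In these lists P2ry12, P2ry13, Mef2c and Ltbp1 averaged under 1 FPKM in control and entered the fit through the miRNA groups, and Cst7 averaged under 1 FPKM in the miRNA groups and entered through control, so their calls add no support. Of 45 other microglia homeostatic genes, 39 were in the fit; 24 rose, 7 fell and 8 did not pass for miR-144 (79.5% called, beside 67.2% of all genes), and 26 rose, 6 fell and 7 did not pass for miR-451a (82.1%, beside 68.3%). The median differences were 0.46 and 0.48, against 0.13 and 0.14 for all genes. With centring on the sample median the counts were 21 higher and 8 lower, and 23 higher and 8 lower. Among genes called in both comparisons, the largest rises by the mean of the 2 differences were those of the complement gene C1qa, from 253 ± 13 FPKM to 986 ± 57 and 1065 ± 67, the purinergic receptor gene P2ry13, from 0.477 ± 0.11 to 4.24 ± 0.98 and 4.48 ± 1.1, Gas6, a ligand of the Mertk and Axl receptors, from 102 ± 12 to 351 ± 15 and 368 ± 7.7, Hpgds, a prostaglandin synthase, from 17.9 ± 1.4 to 60.5 ± 2.5 and 62.4 ± 2.8, and P2ry12. Among those that fell were Ctss, a lysosomal protease, from 5141 ± 181 to 3146 ± 198 and 2928 ± 204, the small GTPase gene Rhob, from 67.8 ± 4.7 to 46.3 ± 3.6 and 47.4 ± 4.5, and Bhlhe41 and Lgmn. Cst3, the highest of the genes called in neither comparison, had 727 ± 70, 710 ± 104 and 699 ± 106 FPKM. P2ry12 was the gene with the smallest adjusted p between the miRNA groups. It was 0.56 lower in miR-451a than in miR-144 (SE 0.08, limma adjusted p = 0.0752, groups of 5 that did not overlap), short of the threshold, and the range over all the fits that included it was 0.0238 to 0.563.

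The genes that microglia raise around plaques and dying cells, called disease-associated, divided the other way. All 20 were in the fit, and 7 rose, 12 fell and 1 did not pass in each comparison (95% called, beside 67.2% and 68.3% of all genes, of which more were higher than lower), with median differences of -0.50 and -0.52. Centring left 4 higher and 12 lower in each. Itgax, the integrin CD11c, fell from 93.1 ± 9.6 FPKM to 3.63 ± 0.69 and 3.43 ± 0.42 (-4.35 and -4.41, SE 0.10, limma adjusted p = 1.8e-14 and 1.53e-14). The next largest falls were in the protease gene Ctsl, from 437 ± 28 to 68.4 ± 4.4 and 65.8 ± 3.1, the chemokine gene Ccl6, from 568 ± 59 to 93.1 ± 7.2 and 95.6 ± 6.7, the tetraspanin gene Cd9, from 323 ± 8.5 to 78.5 ± 11 and 74.5 ± 8.1, and Cst7, a protease inhibitor. The largest rises were in Axl, a receptor for Gas6, from 20.2 ± 2.6 to 92.5 ± 7.2 and 92.6 ± 7.8, the lipid carrier gene Apoe, from 1603 ± 279 to 4536 ± 596 and 3622 ± 693, and the lysozyme gene Lyz2, followed by Spp1 and Csf1, whose calls were lost with centring. Fth1, a ferritin gene, was the gene that did not pass, with 1560 ± 336, 1454 ± 272 and 1742 ± 94 FPKM. The 4 alveolar macrophage markers in the fit, of 9 listed, fell in both comparisons (beside 20.1% and 20.3% of all genes called lower), as Itgax did. The 9 markers summed to 4539 to 6353 FPKM in control against 47.7 to 61.2 and 42.2 to 52.1, with Ear1 and Krt79 at 0. The control sum was chiefly Chil3, at 4789 ± 803 FPKM in control and means of 0.352 and 0.431 in the miRNA groups. Chil3 entered the fit through control, so its call adds no support. The part of such cells in the differences was not tested.

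The TGF-beta pathway, on which microglia depend and of which Tgfbr1 is a receptor, had 23 of 28 genes in the fit. For miR-144 14 rose, 4 fell and 5 did not pass (78.3% called, beside 67.2% of all genes), and for miR-451a 14 rose, 3 fell and 6 did not pass (73.9%, beside 68.3%), with median differences of 0.36 and 0.40. Centring gave 13 higher and 5 lower, and 12 higher and 5 lower. The ligand gene Tgfb1 did not pass, at 48.4 ± 2.0, 48.8 ± 2.7 and 50.2 ± 2.9 FPKM, and it was called with opposite signs under centring (-0.12, miR-144) and TPM scaling (0.13, miR-451a). Of the receptors and transducers, Tgfbr2, the partner of Tgfbr1, rose from 16.4 ± 0.65 FPKM to 35.1 ± 1.2 and 35.5 ± 1.2, and Smad3, which carries the signal to the nucleus, from 1.76 ± 0.08 to 5.86 ± 0.20 and 6.05 ± 0.41. Among targets, Tgfbi rose from 17.6 ± 2.3 to 123 ± 8.6 and 135 ± 9.9 (2.75 and 2.88, SE 0.08, limma adjusted p = 2.09e-13 and 1.15e-13). Ltbp1, which holds latent TGF-beta in the matrix, rose as well, from 0.822 ± 0.14 to 2.78 ± 0.25 and 2.61 ± 0.13. The falls in both comparisons were those of Lrrc32 and Ltbp3, which also bind latent TGF-beta, and Smurf1, a ubiquitin ligase that acts on the receptors, and Lrrc32 lost its miR-451a call under TPM scaling.

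**Figure D5:**
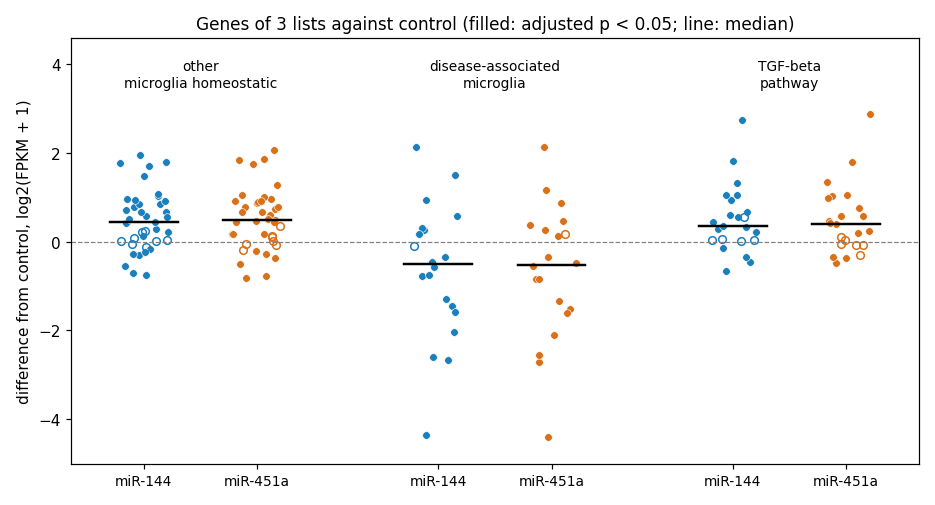
Difference from control in log2(FPKM + 1) for the genes in the fit of 3 lists (39 other microglia homeostatic genes, 20 disease-associated microglia genes and 23 TGF-beta pathway genes), for miR-144 and miR-451a (n = 5 each). Filled points passed the limma test at an adjusted p under 0.05, open points did not, and the lines are medians, which lie above 0 for the first and last lists and below 0 for the disease-associated genes.

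Fructose handling, the role of the undetected Slc2a5, was represented by Khk, fructokinase, with 4.97 ± 0.27 FPKM in control, 8.55 ± 0.49 in miR-144 and 9.48 ± 0.55 in miR-451a. Khk and the transporter gene Slc2a8 rose in both comparisons (2 of 3 genes called for miR-144, or 66.7%, beside 67.2% of all genes, and 3 of 3 for miR-451a, or 100%, beside 68.3%). The call of Tkfc for miR-451a (adjusted p = 0.0303 in limma) was lost with centring and with quantile normalization (adjusted p = 0.743 and 0.338), and for miR-144 Tkfc was called lower with centring (-0.12, limma adjusted p = 0.0356) and with quantile normalization (-0.16, adjusted p = 0.00921). Slc2a2 was listed at 0. Next to the other genes, Hipk1, which neighbours Olfml3, had 20.9 ± 1.4, 28.6 ± 2.0 and 28.6 ± 2.0 FPKM, Selplg, near Tmem119, had 30.2 ± 2.0, 24.8 ± 2.7 and 26.9 ± 4.5, Col15a1, near Tgfbr1, had 0.141 ± 0.056, 0.589 ± 0.11 and 0.656 ± 0.081, and Ccr8, near Cx3cr1, never passed its floor. Of the remaining cell types, hepatocyte markers were at 0 in every sample, neutrophil markers summed to at most 1.31 FPKM and T and NK cell markers to 0.271 to 0.473 in control, 0.107 to 0.309 in miR-144 and 0.085 to 0.202 in miR-451a. Large peritoneal macrophage markers summed to at most 2.22 FPKM in control, to 2.47 to 3.41 in miR-144 and to 2.35 to 3.86 in miR-451a, with Cxcl13 at 0 in all samples. Endothelial markers, mostly Kdr, summed to 3.70 to 4.30, 4.68 to 5.08 and 4.69 to 5.94 FPKM, with none at 0 in all samples. Neither list's control range reached the miRNA ranges, and their part in the levels of the 9 genes was not tested.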

How the data were processed

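TAM RNA was sequenced on an Illumina HiSeq instrument, and the submitters' processing notes name FastQC 0.11.2, STAR and StringTie. Their genome build and annotation are not given in the sources used here. The authors deposited FPKM per gene for 15 samples, grouped here by their titles, and these values were used as deposited. The 9 genes and all gene lists were chosen with earlier results of these data known. Depth was read from the steps between low values. Since 36.3% to 49.6% of them lay within 0.05 steps of a whole number of steps (10% by chance), whole fragments could not be restored and models of counts were left out. Floors are the level of 3 fragments, for counting error only.

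Comparisons used limma 3.58.1 (R 4.3.3) on log2(FPKM + 1), so differences of low genes are understated. The 3 groups entered 1 fit with a trend of variance on level, p-values were adjusted by Benjamini-Hochberg, and genes averaging under 1 FPKM were left out. Intervals are 95%. Alternatives were a pseudocount of 0.1, no filter, a mean of at least 5 FPKM, median centring, quantile normalization, TPM scaling, no trend, 2 groups only, a replicate block and leaving out each sample. Named list genes were up to 5 of the largest rises and falls called in both comparisons with control and the most abundant called in neither; the others named are the 9 genes, their neighbours, the 5 nearest to Fcrls and the leading or absent markers. A few genes that this rule names are not reported here. Gene positions are those of GENCODE M21, in which 99.7% of identifiers occur.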

Additional observations from a re-analysis of the deposited data

Results flagged for a closer look

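A pair of control values stood apart from the rest of their group by Dixon's criterion for 5 samples. Control replicate 3 had the highest Olfml3 level of its group, 3.66 FPKM against 1.71 FPKM for the next sample, and also the highest Gpr34 level, 0.235 against 0.130 FPKM. Among 24 sets of 5 samples examined, chance alone gives about 1.2 such cases.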

How the results depend on the processing

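The 6 genes in the fit kept the direction of each difference from control under every alternative run. For Gpr34, Cx3cr1 and Tgfbr1, and for Fcrls with miR-144 only, the size moved by more than the spread between samples with another scale: with a pseudocount of 0.1, Gpr34 was 4.67 (miR-144) and 5.07 (miR-451a) above control on the log2 scale, and Cx3cr1 4.41 and 4.16. None of the 6 genes passed between miR-451a and miR-144 under any alternative. That difference was 0.17 for Fcrls and 0.16 for Gpr34 without miR-451a replicate 4, and 0.17 for Tmem119 without miR-144 replicate 3. It changed sign without single samples for Cx3cr1 and Olfml3, and for Tgfbr1, where it was near 0, without miR-144 replicate 3 (0.0013) or miR-451a replicate 5. With a mean of at least 5 FPKM, 4776 genes were called for miR-144 and 4821 for miR-451a, because fewer genes were tested. Between miR-451a and miR-144, leaving out each sample gave 0 to 2 calls. Those calls named P2ry12 without miR-144 replicate 5 and without miR-451a replicate 3. Without control replicate 3, Olfml3 was 1.11 and 1.06 above control, against 0.93 and 0.88.

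Samples of different groups that carry the same number correlated at -0.15 to 0.26 in their deviations, over 0.1 in 8 of 15 pairs, so, short of every pair, the numbers were not taken to pair the samples. As a hint from the data, 12 of 30 comparisons ranked the own number first, where chance gives 6, and 4 of the 5 pairs of miR-144 with miR-451a were over 0.1. Fcrls was higher in miR-451a in 5 of 5 such pairs and Gpr34 and Tmem119 in 4 of 5. With the replicate block 7711 genes were called for miR-144, 7859 for miR-451a and 0 between the miRNAs, where limma gave adjusted p = 0.812 for Fcrls, 0.824 for Gpr34 and 0.755 for Tmem119. Low levels are limited by depth: Siglech, Slc2a5, Sall1 and control Gpr34 rest on few fragments or none.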
